A study of Homo sapiens with 238 samples.

Results

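A cell that divides first copies its DNA and then parts the copies, and the genes for these 2 tasks are switched on in turn. Here 37 such genes were followed in the 62 RNA-seq libraries of the series. They were given as a list of symbols, and all 37 were found among the 62696 genes of the count files. They comprise 13 replication genes, 19 mitosis genes, 3 G1 cyclins and 2 inhibitors of cyclin-dependent kinases (CDKs).

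The study asked what G-quadruplexes (G4s), 4-stranded folds of guanine-rich DNA, do in the enhancers of the globin genes. All libraries came from K562, a human erythroleukemia line. Each edited line is 1 clone made with CRISPR-Cas9, so an edit and other differences between clones cannot be told apart. In αMut1 (7 libraries) and αMut2 (4) a G4 motif of HS-40, the distal α-globin enhancer, is mutated on all alleles. αRes1 (8), αRes2 (8), αRes3 (4) and αRes4 (4) were derived from αMut1 by insertion of another G4-forming sequence, and αWT (8) is unedited. βMut1 (4) and βMut2 (4) carry a mutated G4 motif in HS2 of the β-globin locus control region, WT-HS3Δ (4) lacks the neighbouring HS3 element, βMut-HS3Δ (3) lacks HS3 and carries the βMut1 mutation, and βWT (4) is unedited. The sources used here do not say that libraries of a line came from separate cultures, so p-values measure the spread between these libraries, which may be technical.

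Depth ran between 4270215 and 48671570 counts per library, with a median of 27764236. Erythroid markers were present throughout (GATA1 at 191 to 384 CPM, which is counts scaled to a common library size). Of the megakaryocyte markers, PF4 was at 0 in all 62 libraries, whereas ITGA2B stood at 1.21 to 24.7 CPM. Markers of other cell types were likewise mixed, with LYZ at 3.67 to 219 CPM, EPCAM at 27.5 to 145 CPM and ELANE at 0 in 57 libraries. HBA1, a target of HS-40, averaged 140.0 CPM in αMut1 and 45.6 CPM in αMut2, against 172 CPM in αWT. HBE1 averaged 11.7 CPM in WT-HS3Δ and 4.45 CPM in βMut-HS3Δ, against 48.1 CPM in βWT.

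As background, MCM2 to MCM7 form the ring of the replicative helicase, CDC6 and CDT1 load it onto origins and CDC45 joins it when origins fire. PCNA is the sliding clamp of the DNA polymerases, RRM1 and RRM2 form ribonucleotide reductase, and TYMS makes thymidylate. Many of these genes are known targets of E2F factors around the start of S phase. Mitosis is driven by CDK1 with cyclins A and B (CCNA2, CCNB1, CCNB2) and by the kinases PLK1, AURKA and AURKB. BUB1 and BUB1B act in the spindle checkpoint, and CDC20 and UBE2C serve the anaphase-promoting complex, which destroys securin (PTTG1). Genes of this second set are known to peak in G2 and M phase, often through a promoter element called CHR. CDKN1A (p21) and CDKN1B (p27) restrain cyclin-CDK complexes.

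The promoters of both sets were read first, since these motifs are known for the phase they serve. Windows of 250 bases before to 50 after a transcription start (RefSeq, GRCh38.p14) were matched for 31 of the 37 genes. An E2F core (TTCCCGC itself, the variant TTGGCGC, the variant TTGCCGC, or the variant TTCGCGC, on either strand) was present for 10 of 11 replication genes and 2 of 16 mitosis genes, against 15.3% of all 27305 genes. A CHR core (TTTGAA or TTTAAA on either strand) was present for 3 of 11 replication genes and 13 of 16 mitosis genes, against 27.9% of all genes. The CCAAT box (CCAAT on either strand) was present for 8 of 11 and 14 of 16, against 39.7%. A match is a description of letters, and some genes had more than 1 window. The 150 bases before the start are printed for 5 genes that recur below, with matches in capitals, and matches that touch run together.
MCM6, chr2:135876444-135876593 on the minus strand: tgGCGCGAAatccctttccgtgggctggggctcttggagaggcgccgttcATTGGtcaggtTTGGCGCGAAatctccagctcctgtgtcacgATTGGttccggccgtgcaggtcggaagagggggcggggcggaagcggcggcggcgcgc
CDT1, chr16:88803639-88803788 on the plus strand: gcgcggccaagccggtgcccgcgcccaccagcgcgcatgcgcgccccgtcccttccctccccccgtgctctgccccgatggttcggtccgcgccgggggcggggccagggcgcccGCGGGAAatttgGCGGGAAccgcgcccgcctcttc
CCNE1, chr19:29811841-29811990 on the plus strand: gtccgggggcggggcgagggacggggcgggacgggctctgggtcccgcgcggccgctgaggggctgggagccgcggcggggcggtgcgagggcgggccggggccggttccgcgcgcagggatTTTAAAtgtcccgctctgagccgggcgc
CDC20, chr1:43358831-43358980 on the plus strand: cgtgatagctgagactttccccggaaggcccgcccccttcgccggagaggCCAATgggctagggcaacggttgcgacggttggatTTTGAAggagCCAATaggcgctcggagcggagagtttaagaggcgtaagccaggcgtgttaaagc
MKI67, chr10:128126424-128126573 on the minus strand: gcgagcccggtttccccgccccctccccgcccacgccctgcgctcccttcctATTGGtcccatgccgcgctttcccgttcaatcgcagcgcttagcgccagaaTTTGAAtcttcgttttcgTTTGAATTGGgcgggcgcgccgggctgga
In these bases MCM6 and CDT1 hold E2F cores, MCM6 also holds CCAAT boxes, CDC20 and MKI67 hold CHR cores and CCAAT boxes, and CCNE1 holds 1 CHR core.

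To set the 2 groups of genes against each other, log2 CPM was averaged over the 13 replication genes and over the 19 mitosis genes of each library, and the mitosis mean was subtracted. These values have no test and are compared between lines of 1 series. In bulk RNA, a smaller share of cells in a phase and less RNA per cell cannot be told apart.

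The replication mean stood further above the mitosis mean in both HS3-deleted lines than in βWT, and less far above it in the edited α lines than in αWT. The difference was 1.48 ± 0.03 in WT-HS3Δ and 1.42 ± 0.06 in βMut-HS3Δ, against 0.98 ± 0.03 in βWT (mean ± SD, n = 4, 3 and 4). Neither deleted line overlapped βWT. βMut1 (1.07 to 1.27) also lay above βWT (0.95 to 1.01), and βMut2 (0.86 to 1.18) overlapped it. With medians over the genes in place of means, the difference relative to βWT was 0.25 in WT-HS3Δ, against 0.50 with means, and 0.30 in βMut-HS3Δ, against 0.43 with means. In the α series the difference was 0.80 ± 0.11 in αMut1, 1.00 ± 0.08 in αMut2, 0.84 ± 0.08 in αRes1, 0.90 ± 0.13 in αRes2, 0.74 ± 0.04 in αRes3 and 0.65 ± 0.06 in αRes4, against 1.20 ± 0.12 in αWT. The libraries of αMut2 and αRes2 overlapped those of αWT, and those of the other 4 lines did not. The difference also went with replicate number. In αWT it was 1.25 to 1.36 in numbers 1 to 4 and 1.02 to 1.14 in numbers 5 to 8. In αMut1 it was 0.66 to 0.77 in numbers 1 to 4 and 0.88 to 0.95 in numbers 5 to 7. Among numbers 1 to 4, αMut2 (0.89 to 1.06) and αRes2 (0.60 to 0.95) lay below αWT. αRes2 overlapped αWT among numbers 5 to 8 (0.88 to 1.06). What set the numbers apart was not tested.

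**Figure D1:**
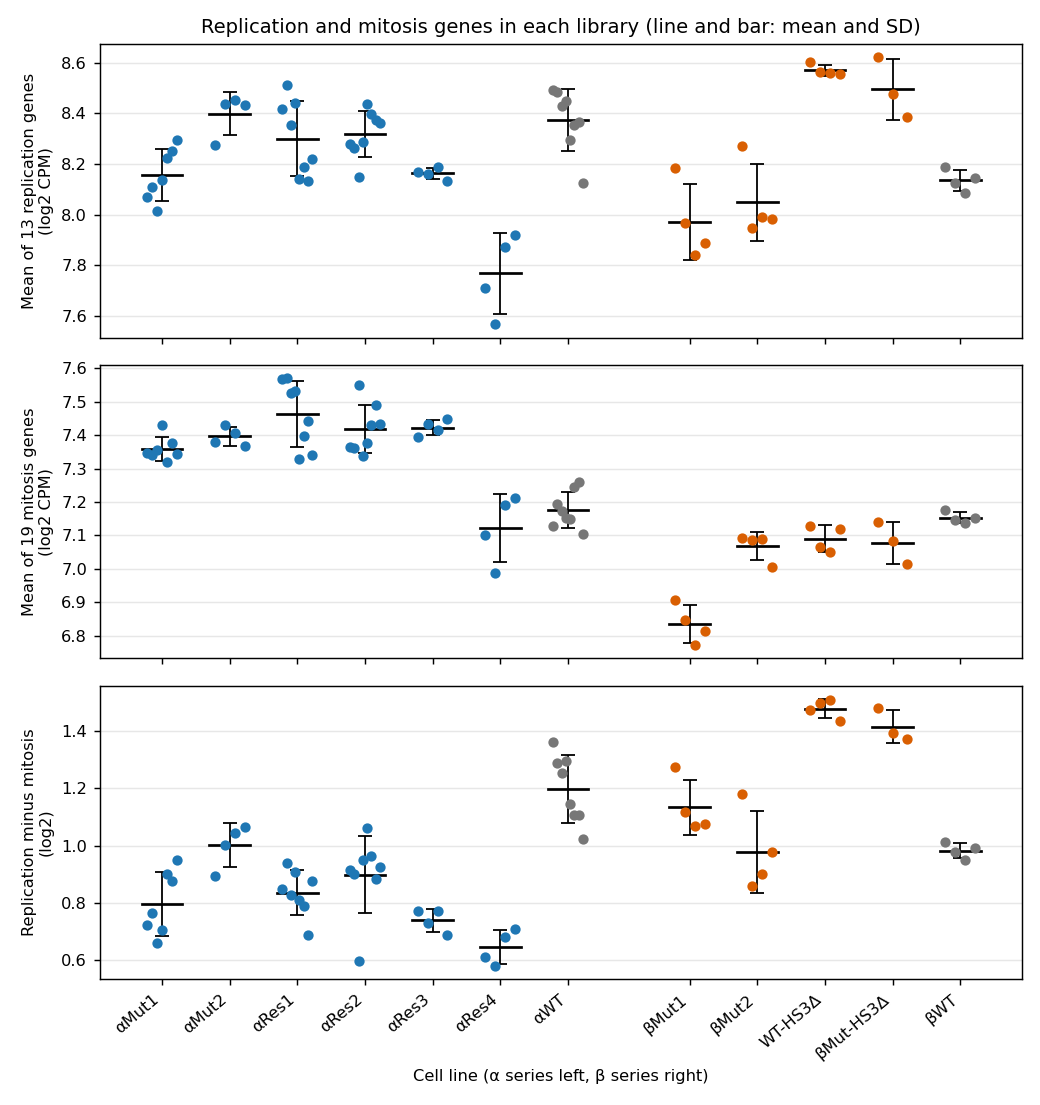
Mean log2 CPM of the 13 replication genes (top), of the 19 mitosis genes (middle) and their difference (bottom), with 1 point per library and the mean and SD of each line. In the difference the HS3-deleted lines (1.43 to 1.51 in WT-HS3Δ, 1.37 to 1.48 in βMut-HS3Δ) lie above βWT (0.95 to 1.01).

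Over all libraries, which of the 2 means stood apart from the unedited line depended on the line. In αMut1 the mitosis mean was 7.36 ± 0.04, against 7.18 ± 0.06 in αWT and without overlap. The replication means overlapped over all libraries (8.16 ± 0.10 in αMut1, 8.37 ± 0.12 in αWT). Among replicate numbers 1 to 4 they did not overlap, at 8.02 to 8.14 in αMut1 and 8.43 to 8.49 in αWT. Among the rest they did, at 8.22 to 8.29 in αMut1 and 8.13 to 8.37 in αWT. In αRes4 the replication mean was 7.77 ± 0.16, against 8.37 ± 0.12 in αWT and without overlap, whereas the mitosis means overlapped (7.12 ± 0.10 in αRes4, 7.18 ± 0.06 in αWT). βMut1 had a low mitosis mean (6.84 ± 0.06, against 7.15 ± 0.02 in βWT), and its replication mean overlapped that of βWT. In WT-HS3Δ the replication mean was high (8.57 ± 0.02, against 8.14 ± 0.04 in βWT), and the mitosis mean was slightly lower (7.09 ± 0.04, against 7.15 ± 0.02 in βWT).

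Single genes were tested with edgeR's quasi-likelihood test over all genes of a series. A gene was called changed at a Benjamini-Hochberg adjusted p below 0.05 with a log2 fold change beyond 0.5 in either direction, and "rose" and "fell" refer to called genes. Fold changes carry their SE. All 37 genes passed the filter of a mean of 10 counts, but UBE2C held only 4 to 56 counts per library while its pseudogene UBE2CP5 averaged 91.8, so UBE2C values are uncertain. CDC20P1 held 31% of the mean count of CDC20, and RRM2P3 10.2% of that of RRM2, and reads may be shared with these copies. KIF20A overlaps BRD8 and CDC23, and CCNE2 overlaps INTS8, on the other strand, and the strand setting of the counting is not given in the sources used here.

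**Figure D2:**
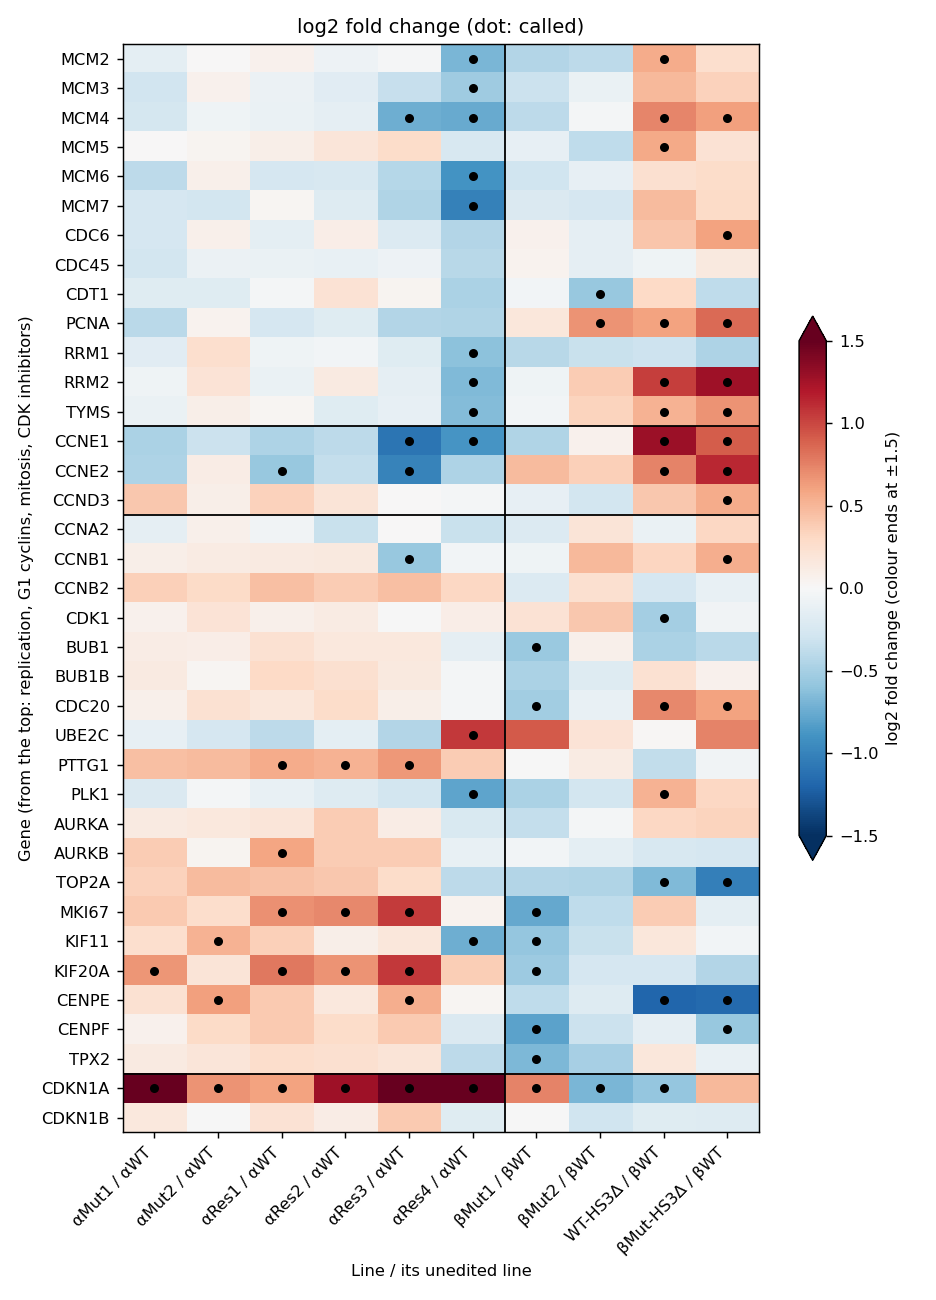
log2 fold change of the 37 genes in each edited line over the unedited line of its series, with a dot on each called gene and colours ending at 1.5 in either direction. CDKN1A carries a dot in 9 of 10 columns, 7 higher and 2 lower.

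After deletion of HS3, 6 of 13 replication genes and 2 of 3 G1 cyclins rose in WT-HS3Δ. In all, 10 of the 37 genes rose there and 4 fell relative to βWT, in a comparison where 22.8% of all 17535 genes were called higher and 27.5% lower. No replication gene fell, and their median log2 change was 0.49, against -0.03 over all genes. The replication genes that rose were RRM2, MCM4, PCNA, MCM5, MCM2 and TYMS, while CDC45 (-0.06 ± 0.06) and RRM1 (-0.30 ± 0.10, adjusted p = 0.0083) lay below 0 and within the fold limit. TYMS lost its call without βWT replicate 1 (0.48) or WT-HS3Δ replicate 2 (0.499), and on genes averaging at least 50 counts (0.49). MCM2 lost its call without βWT replicate 3 (0.49). MCM3 (0.52) and MCM7 (0.51) were also called higher with DESeq2, and at the same values with RLE scaling. The median of the G1 cyclins was 0.75, and of the 19 mitosis genes 2 rose and 3 fell (median -0.10). Without βWT replicate 2 or 3, or on genes averaging at least 50 counts, 1 mitosis gene rose. Without βWT replicate 1, MKI67 was also called higher (0.73) and BUB1 was called lower (-0.53).

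RRM2, the regulated subunit of ribonucleotide reductase, had 419, 423, 406 and 416 CPM in WT-HS3Δ, against 197, 207, 203 and 202 CPM in βWT. The lines did not overlap, and the log2 change was 1.04 ± 0.06, adjusted p = 6.1e-12. CCNE1, the cyclin E that activates CDK2 ahead of S phase, had 81.5, 81.3, 80.9 and 78.5 CPM in WT-HS3Δ, against 35.6, 31.4, 33.3 and 31.9 CPM in βWT, also without overlap (1.29 ± 0.08, adjusted p = 8.5e-11). Its paralog CCNE2 rose by 0.75 ± 0.10, adjusted p = 1.2e-06, and the helicase subunit MCM4 by 0.73 ± 0.13, adjusted p = 6.5e-05. CDC20 was 1 of the 2 mitosis genes that rose, beside PLK1. It had 289.8, 291, 293 and 273 CPM in WT-HS3Δ, against 174, 169, 175 and 175 CPM in βWT (0.73 ± 0.07, adjusted p = 5.4e-08).

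The genes that fell were CENPE, TOP2A, CDK1 and CDKN1A. CENPE, a kinetochore motor that aligns chromosomes, had 47.1, 40.3, 39.9 and 50.3 CPM in WT-HS3Δ, against 113, 100.4, 90.2 and 101 CPM in βWT (-1.19 ± 0.12, adjusted p = 2.8e-08). TOP2A, the topoisomerase that untangles sister chromatids, had 571, 515, 561 and 622 CPM in WT-HS3Δ, against 954, 879, 883 and 887 CPM in βWT (-0.67 ± 0.08, adjusted p = 4.0e-07). Neither gene overlapped between the lines. CDKN1A changed by -0.58 ± 0.11, adjusted p = 0.00015. CDK1 lay at the fold limit (-0.51 ± 0.14, adjusted p = 0.0030) and lost its call without βWT replicate 2 (-0.47) or 3 (-0.44), and without WT-HS3Δ replicate 1 (-0.48) or 4 (-0.49). CDK1 was also within the fold limit with DESeq2 (-0.48), with RLE scaling (-0.48) and with no filter on low counts (-0.41), the last of which also took the call from CDKN1A (-0.48).

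HS3 was deleted a second time on the βMut1 genotype, a comparison that shares no library with the first. In βMut-HS3Δ 21 of the 37 genes rose and 2 fell relative to βMut1, where 23.1% of all genes were called higher and 29.8% lower. The rises took in 9 of 13 replication genes (median log2 change 0.57), all 3 G1 cyclins (0.68) and 9 of 19 mitosis genes (0.23), against a median of -0.06 over all genes. RRM2 had 515, 488 and 455 CPM in βMut-HS3Δ, against 199.8, 200.1, 191 and 181 CPM in βMut1 (1.33 ± 0.06, adjusted p = 5.6e-13). CCNE1 had 65.2, 59.8 and 61.2 CPM in βMut-HS3Δ, against 27.2, 25.3, 22.1 and 22.2 CPM in βMut1 (1.36 ± 0.09, adjusted p = 1.1e-10). The lines did not overlap in either gene. CDC20 (1.13 ± 0.08, adjusted p = 3.0e-10) and MCM4 (1.01 ± 0.14, adjusted p = 3.1e-06) followed. The count of mitosis genes depended on 1 library. Without βMut-HS3Δ replicate 1 it was 5, since BUB1B (0.44), KIF11 (0.43), TPX2 (0.44) and MKI67 (0.45) were no longer called. It was also 5 on genes averaging at least 50 counts, where BUB1B, CCNA2, KIF11 and TPX2 were not called.

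CENPE and TOP2A were the genes that fell. CENPE had 47.2, 41.4 and 46.3 CPM in βMut-HS3Δ, against 94.8, 75.3, 65.8 and 74.6 CPM in βMut1 (-0.79 ± 0.13, adjusted p = 1.7e-05), and TOP2A had 488, 427 and 409.8 CPM in βMut-HS3Δ, against 743, 694, 598 and 632 CPM in βMut1 (-0.59 ± 0.09, adjusted p = 5.2e-06), both without overlap. TOP2A lost its call without βMut1 replicate 1 (-0.48). Across the 2 deletions 9 genes rose in both, which is 42.9% of the rises on the mutated genotype and 90% of those on the intact one: MCM2, MCM4, PCNA, RRM2, TYMS, CCNE1, CCNE2, CDC20 and PLK1. CENPE and TOP2A fell in both, 100% of the falls on the mutated genotype and 50% on the intact one. Over all genes, 74.5% of the rises and 75.9% of the falls on the mutated genotype, and 75.8% of the rises and 82.4% of the falls on the intact one, were shared in this way. Other genes within 5 Mb were read beside these values, since clones of K562 can differ in copy number, which was not measured. Around RRM2 they had median log2 changes of -0.24 in βMut-HS3Δ and -0.01 in WT-HS3Δ, around CCNE1 -0.03 and -0.10, and around CENPE 0.04 and -0.34, whose part was not tested.

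**Figure D3:**
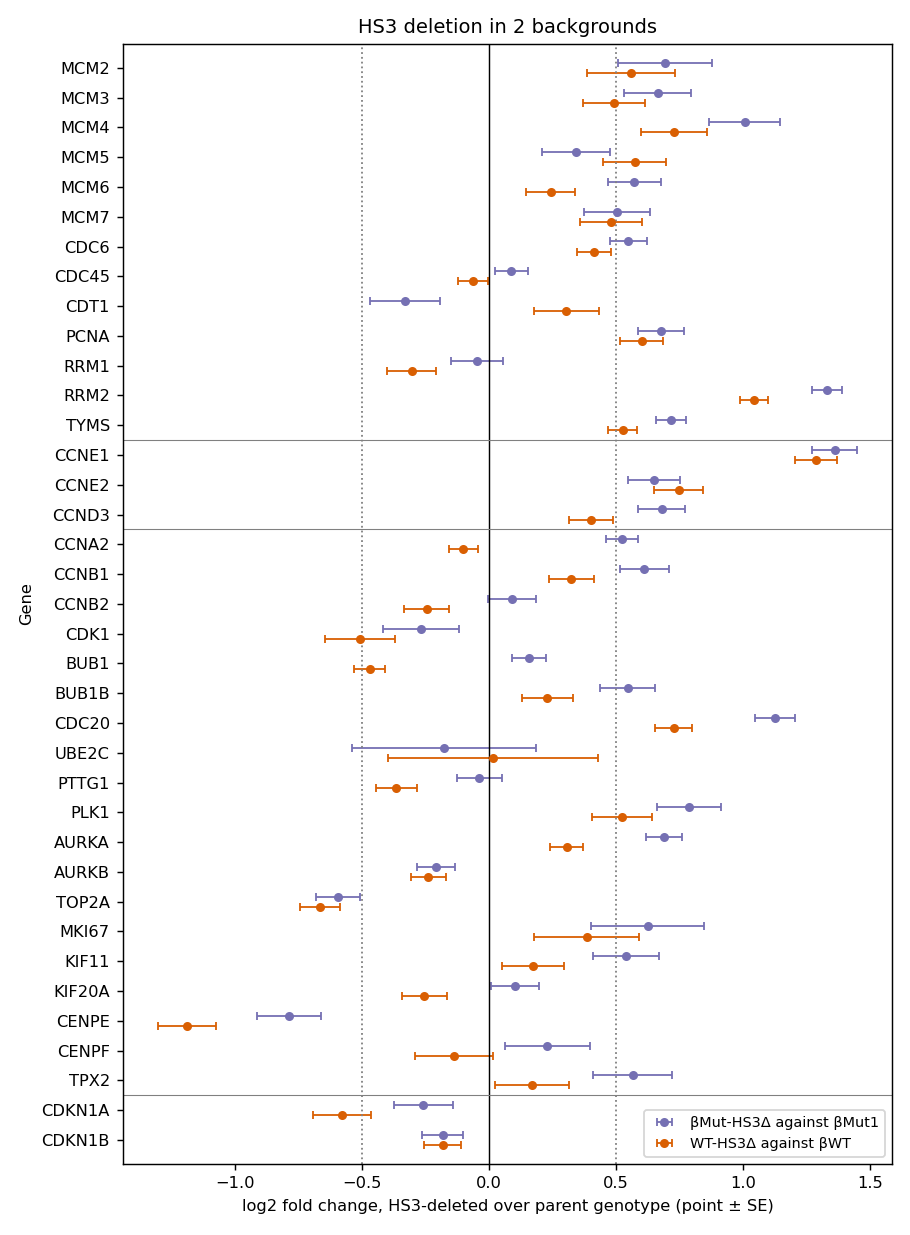
log2 fold change with SE of each of the 37 genes after HS3 deletion, in βMut-HS3Δ over βMut1 and in WT-HS3Δ over βWT, with dotted lines at the fold limit of 0.5. RRM2 (1.33 and 1.04) and CCNE1 (1.36 and 1.29) are high in both, and CENPE (-0.79 and -1.19) is low in both.

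Relative to βWT, 10 genes rose and 3 fell in βMut-HS3Δ (22.0% of all genes called higher and 26.1% lower). RRM2 (1.27 ± 0.06), CCNE2 (1.12 ± 0.10), CCNE1 (0.91 ± 0.09) and PCNA (0.85 ± 0.09) had the largest rises, and CENPE (-1.17 ± 0.13), TOP2A (-1.03 ± 0.09) and the kinetochore protein CENPF (-0.57 ± 0.17) fell. CENPF lost its call without βWT replicate 1 (-0.36), and then 1 mitosis gene rose in place of 2. The 2 deleted lines differed in 2 of the 37 genes, with 7.33% of all genes called higher and 8.99% lower. CDKN1A had 14.2, 13.4 and 13.2 CPM in βMut-HS3Δ, against 7.48, 6.39, 5.48 and 6.71 CPM in WT-HS3Δ (1.06 ± 0.12, adjusted p = 1.2e-06). CDT1 had 227, 178 and 150.3 CPM in βMut-HS3Δ, against 316, 279, 299 and 291 CPM in WT-HS3Δ (-0.68 ± 0.14, adjusted p = 0.0012), where genes within 5 Mb had a median of -0.41, whose part was not tested. Without βMut-HS3Δ replicate 1, the highest in CDT1, 5 genes were called.

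**Figure D4:**
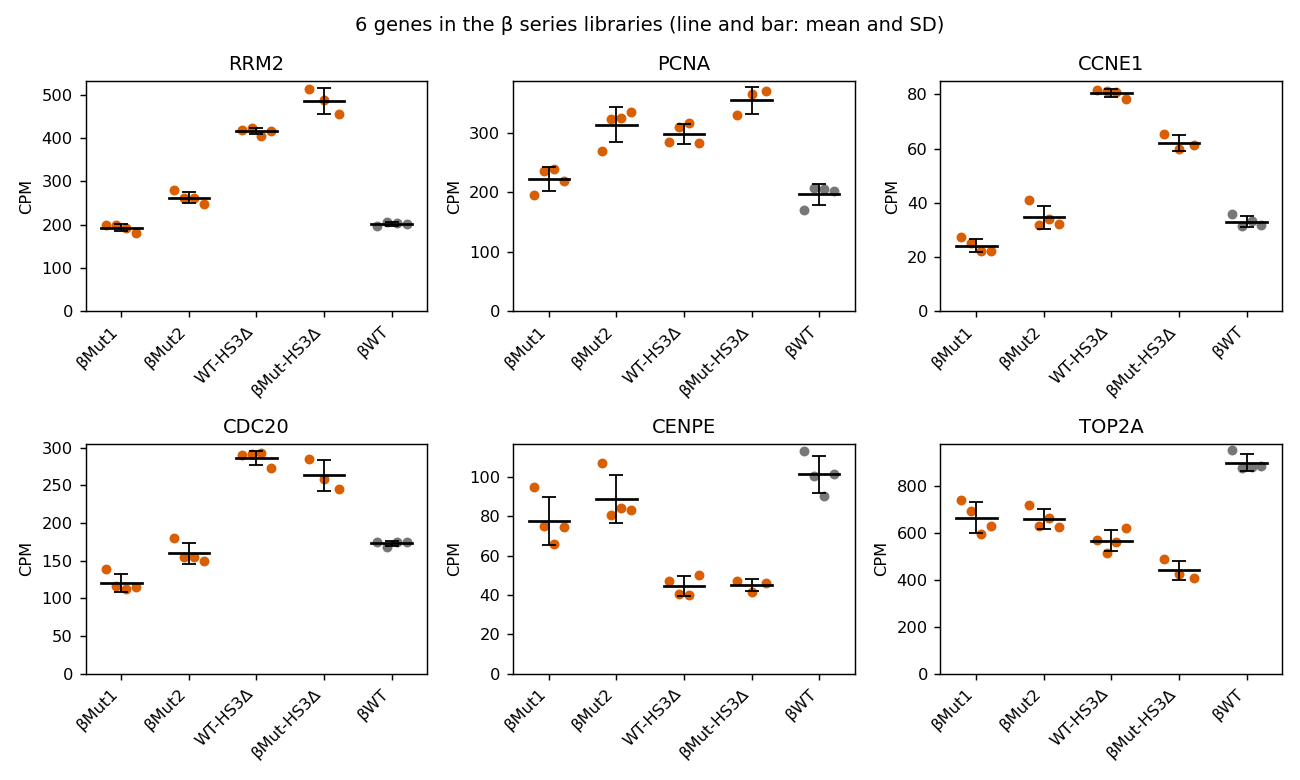
CPM of RRM2, PCNA, CCNE1, CDC20, CENPE and TOP2A in each β series library, with the mean and SD of each line. RRM2, CCNE1 and CDC20 are high and CENPE and TOP2A low in both HS3-deleted lines, and PCNA is also high in βMut2 (270.0 to 336 CPM, against 171 to 208 CPM in βWT).

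In βMut1, with the HS2 motif mutated, the genes that fell were mitosis genes. There 1 gene rose and 7 fell relative to βWT, where 13% of all genes were called higher and 7.28% lower. All 7 that fell are mitosis genes, and the median over the 19 was -0.43, against -0.12 over the replication genes and 0.02 over all genes. The falls were CENPF (-0.80 ± 0.15, adjusted p = 0.00071), MKI67 (-0.77 ± 0.21, adjusted p = 0.0078), TPX2 (-0.67 ± 0.15, adjusted p = 0.0018), KIF11 (-0.58 ± 0.12, adjusted p = 0.0015), BUB1, KIF20A and CDC20. TPX2 activates AURKA on the spindle, and KIF11 is the kinesin that pushes spindle poles apart.

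MKI67, which coats mitotic chromosomes as Ki-67, had 93.6, 69.5, 71.9 and 80.2 CPM in βMut1, against 220.3, 101, 107 and 108 CPM in βWT. CENPF had 108, 78.2, 72.6 and 89.7 CPM in βMut1, against 213, 132, 130.4 and 132 CPM in βWT. Neither gene overlapped, although βWT replicate 1 stood far above the other βWT libraries, and without it MKI67 (-0.42) and KIF11 (-0.496) were no longer past the fold limit. BUB1 was less scattered, with 219.9, 239, 223 and 222 CPM in βMut1 and 292, 339.6, 359.8 and 340.1 CPM in βWT (-0.56 ± 0.06, adjusted p = 2.1e-06). CDKN1A, the 1 gene that rose, had 19.8, 15.7, 14.3 and 15.52 CPM in βMut1, against 11.1, 9.46, 8.77 and 9.66 CPM in βWT (0.74 ± 0.11, adjusted p = 5.3e-05).

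The count of falls in βMut1 depended on its replicate 1. Without it 17 genes were called, 2 higher and 15 lower, and the falls then included the replication genes MCM2 (-0.68), MCM4 (-0.57) and RRM1 (-0.55). The mitosis genes that fell then numbered 11. In all 5 β lines replicate 1 held the highest MCM2 of its line (231, 236, 368, 327 and 279 CPM in βMut1, βMut2, WT-HS3Δ, βMut-HS3Δ and βWT) and the lowest CDK1 (308, 356, 229, 292 and 263 CPM). What set replicate 1 apart was not tested. With numbers 2 to 4 of every β line, a choice made after seeing the data, 14 were called, 2 higher and 12 lower. MKI67 and CENPF are among 6 of the 37 genes with at least 9000 exonic bases, and protein-coding genes of that length had a median log2 change of -0.20 in βMut1 relative to βWT, against -0.03 for shorter ones. The part of length was not tested.

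In βMut2 1 gene rose and 2 fell relative to βWT (15.0% of all genes called higher and 13.7% lower), and the 3 include no mitosis gene (median -0.14 over the 19). TPX2 lay just within the fold limit (-0.498 ± 0.15, adjusted p = 0.0081) and was called lower with DESeq2 (-0.51), with RLE scaling (-0.51), among numbers 2 to 4 (-0.59), and without βMut2 replicate 1 (-0.70) or βWT replicate 2 (-0.53), 3 (-0.53) or 4 (-0.52). PCNA had 270.0, 324, 325 and 336 CPM in βMut2, against 171, 208, 206 and 202 CPM in βWT, without overlap (0.67 ± 0.08, adjusted p = 3.9e-06). CDKN1A (-0.69 ± 0.11, adjusted p = 7.5e-05) and CDT1 (-0.57 ± 0.13, adjusted p = 0.0012) fell, CDT1 not without βWT replicate 1 (-0.45). Without βMut2 replicate 1 8 genes were called, 2 higher and 6 lower, with TOP2A (-0.53) among the falls and CCNB1 (0.51) among the rises, and without βWT replicate 2 or 3 5 were called each time.

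The 2 HS2 clones were also compared directly. In βMut2 relative to βMut1 3 genes were higher and 2 lower (10.6% of all genes called higher and 15.2% lower). BUB1 (0.63 ± 0.06, adjusted p = 9.8e-08), CCNB1 (0.55 ± 0.09, adjusted p = 5.0e-05) and CCNE1 (0.52 ± 0.08, adjusted p = 4.6e-05) were higher, and CDKN1A (-1.43 ± 0.11, adjusted p = 4.7e-09) and CDT1 (-0.52 ± 0.13, adjusted p = 0.0023) were lower. CCNE1 lost its call without βMut1 replicate 3 (0.49) or 4 (0.47), without βMut2 replicate 1 (0.42) and among numbers 2 to 4 (0.48). CDT1 lost it without βMut1 replicate 1 (-0.41), without βMut2 replicate 2 (-0.47) or 3 (-0.49) and with no filter on low counts (-0.499), and CCNB1 without βMut1 replicate 1 (0.495). CDKN1A moved in opposite directions in the 2 clones relative to βWT.

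The interaction asks whether HS3 deletion changed a gene by another amount on the mutated genotype than on the intact one. It called 2 genes higher and 1 lower, with 5.18% of all genes called higher and 6.88% lower. CCNA2, the cyclin of S and G2 phase, had 459.6, 480.3 and 458 CPM in βMut-HS3Δ, against 316, 342, 327 and 312 CPM in βMut1. On the intact genotype it had 339, 369, 346 and 344 CPM in WT-HS3Δ, against 338, 389, 393 and 379.5 CPM in βWT, with overlap. The difference of the 2 changes was 0.62 ± 0.08, adjusted p = 3.0e-05, that of BUB1 0.63 ± 0.09, adjusted p = 6.0e-05 and that of CDT1 -0.63 ± 0.19, adjusted p = 0.024. CDT1 lost its call in 7 of the 15 fits that left out 1 library, and without βMut1 replicate 1 the interaction called 6 genes, all higher.

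In the α series CDKN1A changed most in the mutated clones, while few genes of the cycle itself passed the fold limit. In αMut1 2 genes rose and none fell relative to αWT (15.4% of all 18247 genes called higher and 7.35% lower). The median log2 change was -0.25 over the replication genes and 0.13 over the mitosis genes, against -0.03 over all genes. At an adjusted p below 0.05 with no fold limit, 6 of 13 replication genes were lower and none higher, and 8 of 19 mitosis genes were higher and 1 lower. PCNA, with 193 to 215 CPM (median 206) in αMut1 and 246 to 298 CPM (median 271) in αWT, did not overlap but stayed within the fold limit (-0.40 ± 0.06, adjusted p = 1.7e-06). KIF20A, a kinesin of late mitosis, had 122 to 139.7 CPM (median 132) in αMut1, against 70.1 to 92.0 CPM (median 80.5) in αWT, without overlap (0.67 ± 0.06, adjusted p = 4.7e-11). Its change was 0.76 among replicate numbers 1 to 4 and 0.63 among the rest.

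CDKN1A had 8.09 to 21.5 CPM (median 19.8) in αMut1, against 4.20 to 5.62 CPM (median 4.70) in αWT, without overlap (1.72 ± 0.19, adjusted p = 9.3e-10). The αMut1 libraries fell into 2 levels by replicate number, with 21.0, 21.5, 19.8 and 21.1 CPM in numbers 1 to 4 and 9.98, 9.08 and 8.09 CPM in numbers 5 to 7, while αWT showed no such step. The change was 2.13 within numbers 1 to 4 and 0.95 within the rest, and both were called. CDT1 was split the other way, at 115 to 135 CPM in numbers 1 to 4 of αMut1 and 238 to 241 CPM in numbers 5 to 7, with αWT at 184 to 208 CPM. Between these sets of αMut1 CDT1 differed by 0.90 ± 0.09, and genes within 5 Mb by a median of 0.48. What set the libraries apart was not tested.

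Within a set more genes were called than over all libraries. Numbers 1 to 4 gave 6, 3 higher and 3 lower, the falls being CDT1 (-0.63), MCM6 (-0.54) and MCM7 (-0.56). Numbers 5 to 8 gave 5, 3 higher and 2 lower, the falls being CCNE1 (-0.55) and CCNE2 (-0.56), with MKI67 higher (0.54). Between sets of 1 line, 4 genes were called in αMut1 (29.1% of all genes), 4 in αRes1 (38.2%), 2 in αRes2 (15.2%) and 2 in αWT (25.6%). In αRes1 and αRes2 the 2 sets also differ in an inferred alignment reference, so set and reference cannot be told apart there. In αRes2 the count was 1 without replicate 1 and 4 without replicate 4 or 8, and in αWT it was 1 without replicate 8.

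In αMut2 3 genes rose and none fell relative to αWT (6.62% of all genes called higher and 9.43% lower). CDKN1A had 8.22, 8.19, 6.99 and 7.26 CPM in αMut2, above all αWT libraries (0.68 ± 0.22, adjusted p = 0.018), though not past the threshold without αMut2 replicate 2 (0.65, adjusted p = 0.054). CENPE had 219, 202, 202 and 202 CPM in αMut2, against 102 to 163 CPM (median 138) in αWT (0.61 ± 0.15, adjusted p = 0.0033). KIF11 had 198, 197, 191 and 187 CPM in αMut2, against 91.3 to 162 CPM (median 139) in αWT (0.52 ± 0.11, adjusted p = 0.00079). No gene of the 3 overlapped, but αWT itself stood at 158 to 162 CPM of KIF11 in numbers 1 to 4 and 91.3 to 120.3 CPM in numbers 5 to 8. Among numbers 1 to 4 alone, KIF11 (0.26) and CENPE (0.41) lay within the fold limit, and CDKN1A (0.65) was the 1 gene called. KIF11 was also within the limit without αWT replicate 5 (0.49), 6 (0.498), 7 (0.49) or 8 (0.46).

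Past the fold limit, the 2 HS-40 clones differed in CDKN1A and CCNE2. In αMut2 relative to αMut1 1 gene was higher and 1 lower (5.78% of all genes called higher and 16.1% lower), CCNE2 (0.57 ± 0.15, adjusted p = 0.0026) and CDKN1A (-1.04 ± 0.23, adjusted p = 0.00057). CCNE2 was within the fold limit among numbers 1 to 4 (0.47), where CDKN1A stood at -1.48. Without αMut2 replicate 1, 4 genes were called. At an adjusted p below 0.05 with no fold limit, 9 of 13 replication genes were higher in αMut2 and 0 lower (median 0.20). Of 19 mitosis genes 0 were higher and 2 lower (median 0.03). Over all 18247 genes 3341 were higher and 3542 lower (median 0.01).

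**Figure D5:**
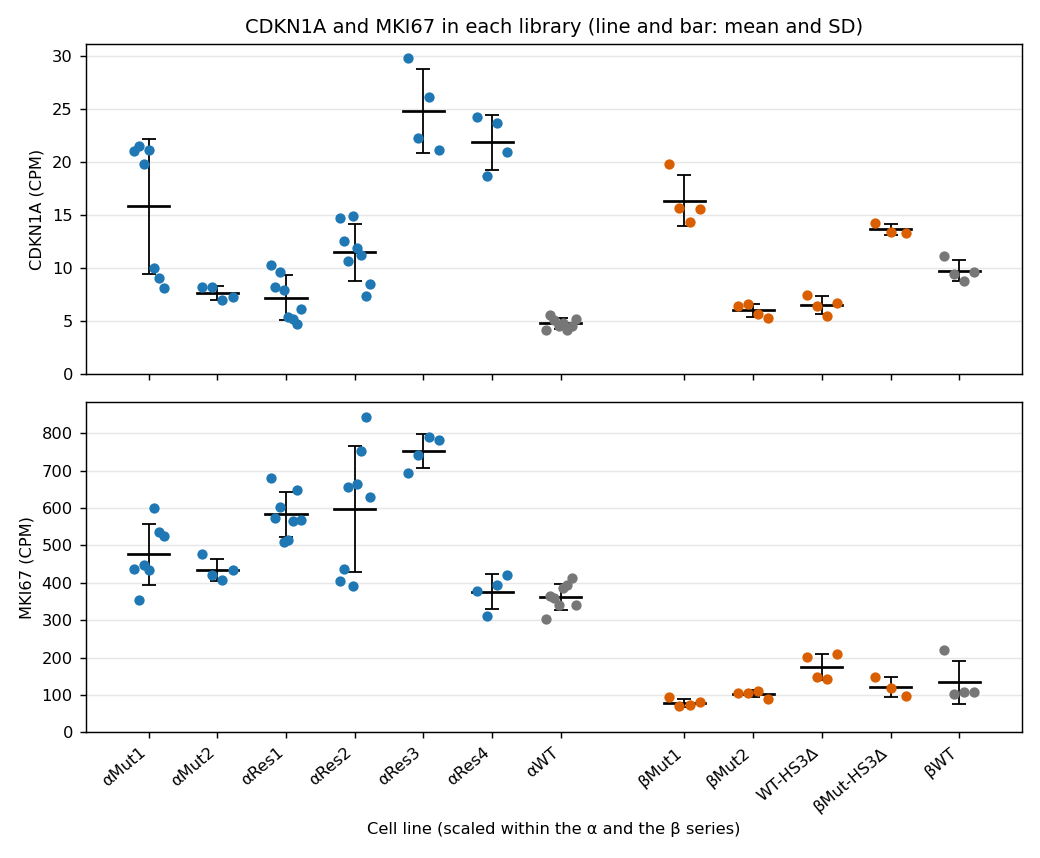
CPM of CDKN1A (top) and MKI67 (bottom) in each library, with the mean and SD of each line, scaled within each series. CDKN1A forms 2 levels in αMut1, at 19.8 to 21.5 and 8.09 to 9.98 CPM, and MKI67 reaches its highest α values in αRes2 and αRes3.

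The clones with an inserted G4-forming sequence were compared with αMut1, their parent. For αRes3, αRes4 and numbers 5 to 8 of αRes1 and αRes2, another alignment reference than for αMut1 and αWT is inferred from pseudoautosomal counts. In comparisons of these libraries with αMut1 or αWT, clone and reference cannot be told apart. In αRes1 CDKN1A was the 1 gene called, and it fell (-1.12 ± 0.19, adjusted p = 9.2e-05), with 0.400% of all genes called higher and 2.56% lower. It had 4.77 to 10.3 CPM (median 7.03) in αRes1, which overlapped αMut1, and the change was -1.23 among numbers 1 to 4 and -0.74 among the rest, both called. Among numbers 1 to 4 4 genes were called, with CDT1 (0.73) and MCM7 (0.67) higher. In αRes2 no gene was called with edgeR (2.72% of all genes called higher and 6.24% lower), at an adjusted p below 0.05 8 passed with no fold limit, and CDKN1A had 7.34 to 14.9 CPM (median 11.6). CDKN1A was called lower when αMut1 replicate 5 (-0.53), 6 (-0.55) or 7 (-0.56) was left out.

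In αRes3 2 genes rose and 3 fell relative to αMut1 (9.69% of all genes called higher and 10.9% lower). MKI67 had 692, 742, 790.5 and 781 CPM in αRes3, against 354 to 601 CPM (median 447) in αMut1, without overlap (0.66 ± 0.14, adjusted p = 0.00036). CCNB1, the main mitotic cyclin, had 196, 208, 205 and 199.7 CPM in αRes3, against 291 to 339 CPM (median 329) in αMut1, also without overlap (-0.66 ± 0.08, adjusted p = 7.4e-09). CCNE1 (-0.63 ± 0.09, adjusted p = 8.4e-07) and CCNE2 (-0.54 ± 0.16, adjusted p = 0.0068) fell. Genes within 5 Mb had median changes of -0.51 around CCNB1, -0.57 around CCNE2 and 0.05 around CCNE1, and the part of the region was not tested. CDKN1A rose (0.65 ± 0.22, adjusted p = 0.018), but not among numbers 1 to 4 (0.24, adjusted p = 0.061).

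In αRes4 1 gene rose and 9 fell relative to αMut1 (18.5% of all genes called higher and 14.0% lower). The falls took in 5 of 13 replication genes (MCM7, RRM2, TYMS, MCM2 and MCM6, median -0.45) and 4 of 19 mitosis genes (KIF11, TOP2A, PLK1 and TPX2, median -0.25), against a median of 0.01 over all genes. KIF11 (-0.99 ± 0.12, adjusted p = 3.3e-08), MCM7 (-0.76 ± 0.13, adjusted p = 1.3e-05), TOP2A (-0.73 ± 0.09, adjusted p = 2.4e-08) and RRM2 (-0.60 ± 0.07, adjusted p = 2.6e-08) fell most, and UBE2C rose on few counts (1.18 ± 0.28, adjusted p = 0.00058). MCM7 had 358, 326, 425 and 439 CPM in αRes4, against 528 to 841 CPM (median 586) in αMut1, without overlap. Against numbers 1 to 4 of αMut1, MCM2 (-0.39) and PLK1 (-0.41) lay within the fold limit. Without αRes4 replicate 1 or 2, or αMut1 replicate 7, 3 replication genes fell. MCM6 (-0.48, -0.42 and -0.499) and MCM2 (-0.49, -0.44 and -0.499) lost their calls in these fits, and MCM6 also without αMut1 replicate 1, 2 or 4 (-0.499, -0.495 and -0.49). TPX2 lost its call without αRes4 replicate 1 (-0.48) or 2 (-0.45).

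αRes4 was also compared with αWT. There 2 genes rose and 11 fell (23.3% of all genes called higher and 17.2% lower), and 8 of 13 replication genes fell at a median of -0.61, against 0.01 over all genes. MCM7 (-1.02 ± 0.13, adjusted p = 3.2e-08), MCM6 (-0.89 ± 0.11, adjusted p = 5.9e-09), CCNE1 (-0.88 ± 0.09, adjusted p = 1.1e-10) and PLK1 (-0.79 ± 0.10, adjusted p = 1.4e-08) fell most, PLK1 in a region whose genes had a median of -0.55. CDKN1A had 24.2, 18.6, 23.6 and 20.9 CPM in αRes4, above all αWT libraries (2.19 ± 0.21, adjusted p = 1.9e-11).

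The other 3 clones were compared with the same αWT libraries. Of the 19 mitosis genes 4 rose in αRes1 (21.1%, against 13% of all genes), 3 in αRes2 (15.8%, against 12.0%) and 4 in αRes3 (21.1%, against 20.1%). In αRes1 5 genes rose and 1 fell (13% of all genes called higher and 7.41% lower): KIF20A (0.79 ± 0.06), MKI67 (0.69 ± 0.12), CDKN1A (0.60 ± 0.18), AURKB (0.60 ± 0.07) and PTTG1 (0.55 ± 0.07) rose and CCNE2 (-0.57 ± 0.12) fell. In αRes2 4 rose and none fell (12.0% of all genes higher and 6.67% lower): CDKN1A (1.27 ± 0.18), MKI67 (0.72 ± 0.12), KIF20A (0.68 ± 0.06) and PTTG1 (0.52 ± 0.07). Within the sets, KIF20A was 0.84 and 0.76 in αRes1 and 0.70 and 0.66 in αRes2, CDKN1A in αRes1 was 0.90 and 0.21, the second without a call, and MKI67 in αRes2 was within the fold limit among numbers 1 to 4 (0.47). In αRes3 5 rose and 4 fell (20.1% of all genes higher and 18.9% lower), led by CDKN1A (2.38 ± 0.21), KIF20A (1.06 ± 0.07), MKI67 (1.05 ± 0.14) and PTTG1 (0.65 ± 0.08) upward and by CCNE1 (-1.10 ± 0.09), CCNE2 (-1.0 ± 0.16), MCM4 (-0.74 ± 0.07) and CCNB1 (-0.57 ± 0.08) downward. Within the fold limit among numbers 1 to 4 were CCNE2 (-0.25) and PTTG1 (0.49) in αRes1 and CCNB1 (-0.47) in αRes3, and PTTG1 in αRes2 was so among numbers 5 to 8 (0.48).

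The unedited lines differed as well. In αWT relative to βWT 6 genes rose and 8 fell, where 25.0% of all 18196 genes were called higher and 23.1% lower. The medians were 0.03 over the replication genes and -0.22 over the mitosis genes, against 0.02 over all genes. UBE2C (1.34 ± 0.44, on few counts), MKI67 (1.29 ± 0.18, adjusted p = 2.6e-05), CCNE1 (0.68 ± 0.12) and CENPF (0.68 ± 0.12) rose most, and CDKN1A (-1.17 ± 0.10, adjusted p = 2.1e-07), CDK1 (-0.85 ± 0.10), BUB1 (-0.83 ± 0.07) and CCNB2 (-0.72 ± 0.07) fell most. Series, culture and sequencing run cannot be told apart here.

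Levels in every line complete these comparisons. MCM2 spanned, in CPM, 218 to 312 in αMut1, 251 to 302 in αMut2, 277 to 314 in αRes1, 215 to 313 in αRes2, 264 to 290.5 in αRes3, 136 to 209 in αRes4, with 229.8 to 299 in αWT. In the β series it spanned 132 to 231 in βMut1, 144 to 236 in βMut2, 312 to 368 in WT-HS3Δ, 223 to 327 in βMut-HS3Δ, with 197 to 279 in βWT. αRes4 lay wholly below αWT and WT-HS3Δ wholly above βWT, and the other lines overlapped their unedited line. PCNA spanned 193 to 215 in αMut1, 257 to 298 in αMut2, 193 to 289.6 in αRes1, 218 to 267 in αRes2, 198 to 204 in αRes3, 189 to 208 in αRes4, with 246 to 298 in αWT, and in the remaining β lines 195 to 239 in βMut1, 283 to 316 in WT-HS3Δ and 329 to 370.2 in βMut-HS3Δ. αMut1, αRes3 and αRes4 lay below αWT, and the 3 lines βMut2, WT-HS3Δ and βMut-HS3Δ above βWT.

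MKI67 spanned, in CPM, 354 to 601 in αMut1, 408 to 476 in αMut2, 509 to 681 in αRes1, 390.0 to 844 in αRes2, 692 to 790.5 in αRes3, 311 to 420.3 in αRes4, with 304 to 413 in αWT, and in the remaining β lines 90.3 to 112 in βMut2, 143 to 209 in WT-HS3Δ and 96.6 to 149 in βMut-HS3Δ, all overlapping βWT. For WT-HS3Δ the overlap rests on βWT replicate 1 (220.3 CPM). Without that library MKI67 was called higher in WT-HS3Δ (0.73, adjusted p = 0.00029). CCNB1 spanned 291 to 339 in αMut1, 302 to 343 in αMut2, 272 to 381 in αRes1, 311 to 359.6 in αRes2, 196 to 208 in αRes3, 279 to 308 in αRes4, with 271 to 339.8 in αWT. In the β series CCNB1 spanned 263 to 329.7 in βMut1, 385 to 466 in βMut2, 380.5 to 410.4 in WT-HS3Δ, 446 to 474 in βMut-HS3Δ, with 263 to 354 in βWT. αRes3 lay below αWT, and βMut2, WT-HS3Δ and βMut-HS3Δ lay above βWT. CDKN1B was called in none of the comparisons. It spanned 46.5 to 58.0 in αMut1, 43.02 to 47.8 in αMut2, 45.3 to 57.9 in αRes1, 44.4 to 55.4 in αRes2, 57.7 to 62.9 in αRes3, 35.2 to 44.8 in αRes4, with 43.6 to 48.7 in αWT, and in the β series 51.4 to 64.9 in βMut1, 42.1 to 51.7 in βMut2, 48.1 to 51.5 in WT-HS3Δ, 48.5 to 51.2 in βMut-HS3Δ, with 54.0 to 59.1 in βWT. For CDKN1A, αRes3 held 21.1 to 29.8 CPM and βMut2 5.33 to 6.59 CPM.

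Other genes of the same processes, taken as lists, were counted in the same fits. For these counts, the shares of all genes called higher and lower were 13% and 7.28% in βMut1, 15.0% and 13.7% in βMut2, 22.8% and 27.5% in WT-HS3Δ, 22.0% and 26.1% in βMut-HS3Δ, 15.4% and 7.35% in αMut1 and 6.62% and 9.43% in αMut2. Of 50 other replication genes, 14 rose and 4 fell in WT-HS3Δ relative to βWT (28% and 8%, median 0.25), and 19 rose and 1 fell in βMut-HS3Δ (38% and 2%, median 0.25). GINS3, a subunit of the active helicase, rose in WT-HS3Δ (1.505 ± 0.09, adjusted p = 4.9e-11) with POLA2 of the priming polymerase (0.78 ± 0.08, adjusted p = 1.0e-07), and POLE3 (0.95 ± 0.07, adjusted p = 5.0e-10) and ORC5 (0.73 ± 0.07, adjusted p = 5.4e-08) rose in βMut-HS3Δ. In βMut1 none was called, and in βMut2 8 rose and 1 fell (16% and 2%). In αMut1 none rose and 5 fell (median -0.23), with CDC7, the kinase that fires origins, at -0.68 ± 0.09, adjusted p = 1.8e-07. POLD3 (-0.496 ± 0.07), ORC1 (-0.40 ± 0.06) and GINS4 (-0.29 ± 0.05) stayed within the fold limit, and in αMut2 none was called.

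Of 53 other mitosis genes, none rose and 8 fell in βMut1 relative to βWT (0% and 15.1%, against 13% and 7.28% of all genes, median -0.26), and 4 rose and 4 fell in βMut2 (7.55% and 7.55%, against 15.0% and 13.7%, median -0.14). In WT-HS3Δ 7 rose and 12 fell (13.2% and 22.6%, against 22.8% and 27.5%, median -0.10), and in βMut-HS3Δ 5 rose and 12 fell (9.43% and 22.6%, against 22.0% and 26.1%, median -0.05). CDC25C, the phosphatase that activates CDK1 (-1.22 ± 0.07, adjusted p = 1.5e-11), the kinesin KIF18A (-0.89 ± 0.08, adjusted p = 1.6e-08) and the kinetochore protein NDC80 (-0.77 ± 0.07, adjusted p = 8.8e-09) fell in WT-HS3Δ, and CDCA5, which protects sister chromatid cohesion, rose in βMut-HS3Δ (0.74 ± 0.07, adjusted p = 2.3e-08). In αMut1 none rose and 1 fell (median 0.14), and in αMut2 4 rose and 1 fell (0.21). NDC80 (0.499 ± 0.06), KIF4A (0.49 ± 0.06), DLGAP5 (0.41 ± 0.06) and KIF23 (0.34 ± 0.05) in αMut1 lay within the fold limit.

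Of 20 transcription factors and pocket proteins of the cycle, 5 rose and 3 fell in WT-HS3Δ relative to βWT (25% and 15%, against 22.8% and 27.5% of all genes) and 5 rose and 2 fell in βMut-HS3Δ (25% and 10%, against 22.0% and 26.1%). E2F4 (1.42 ± 0.09, adjusted p = 4.9e-11) and TFDP1, an E2F partner (0.60 ± 0.05, adjusted p = 3.3e-09), rose and LIN54, the DNA-binding subunit of the DREAM complex, fell (-0.69 ± 0.06, adjusted p = 4.0e-09) in WT-HS3Δ, and RBL2 (p130) fell in βMut-HS3Δ (-1.17 ± 0.08, adjusted p = 1.0e-10). In αMut1 E2F2 (-0.41 ± 0.07) and TFDP1 (-0.35 ± 0.07), and in αMut2 E2F7 (0.496 ± 0.11), stayed within the fold limit. Of 14 other cyclins, CDKs and CDK inhibitors tested, 5 rose and 2 fell in WT-HS3Δ (35.7% and 14.3%), with CCND1 (1.58 ± 0.14, adjusted p = 9.4e-09), CDKN2C (0.76 ± 0.07, adjusted p = 5.3e-09) and CDK4 (0.61 ± 0.07, adjusted p = 1.0e-07) higher. CDKN1C (p57) fell in βMut-HS3Δ (-1.75 ± 0.09, adjusted p = 1.7e-12) and in αMut2 (-0.89 ± 0.19, adjusted p = 0.00041), and CDKN2D rose in αMut1 (0.61 ± 0.11, adjusted p = 3.0e-05), where CDK6 (-0.46 ± 0.10) and CDC25A (-0.43 ± 0.10) stayed within the limit.

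CDKN1A is a known p53 target, and 14 other such genes were counted beside it. In αMut1 2 rose and 1 fell relative to αWT, FAS (2.46 ± 0.33, adjusted p = 1.0e-07) and BTG2 (1.84 ± 0.17, adjusted p = 7.7e-12) upward and TNFRSF10B (-0.81 ± 0.09, adjusted p = 2.5e-09) downward, with SESN1 within the fold limit (0.38 ± 0.07). In αMut2 1 rose and 1 fell. In WT-HS3Δ 2 rose and 7 fell relative to βWT (14.3% and 50%, against 22.8% and 27.5% of all genes), with TNFRSF10B at -2.85 ± 0.07, adjusted p = 5.7e-17, and in βMut-HS3Δ 4 rose and 4 fell (28.6% and 28.6%, against 22.0% and 26.1%), with SESN2 (-2.58 ± 0.19, adjusted p = 6.6e-10), BBC3 (-2.35 ± 0.10, adjusted p = 2.2e-13) and CCNG1 (-1.25 ± 0.08, adjusted p = 1.3e-10) lower. Medians over the 14 were 0.07 in αMut1, 0.19 in αMut2, -0.04 in βMut1, -0.29 in βMut2, -0.33 in WT-HS3Δ and -0.15 in βMut-HS3Δ.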

How the data were processed

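Poly(A) RNA-seq was analysed in 62 libraries, 43 of the α series and 19 of the β series, grouped by the line named in the sample labels. Fewer libraries of αMut1, αMut2 and βMut-HS3Δ were analysed here than the study's methods state. Each file held whole-number gene-level counts, as the authors deposited them. They trimmed paired reads with cutadapt, aligned them to hg38 with bwa mem, sorted them with SAMtools (1.15.1 in the submitters' processing notes), removed duplicates with Picard and counted GENCODE genes with featureCounts. The kit kept strand, but the strand and multi-mapping settings of the counting are not given in the sources used here. Over 5 pseudoautosomal genes 46 libraries held at most 1 count and 16 (αRes1 and αRes2 numbers 5 to 8, αRes3 and αRes4) at least 5401, from which a second alignment reference is inferred.

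Counts were tested with edgeR 4.0.16 (limma 3.58.1, R 4.3.3) with TMM scaling and quasi-likelihood tests on genes averaging 10 counts or more, in 1 fit per series (18247 and 17535 genes), 1 of αWT and βWT (18196) and 1 of the α libraries split by replicate number. The study's own test was DESeq2, run here (1.42.0) as an alternative. Adjusted p-values come from edgeR over all genes. CPM were TMM-scaled within a series, with a prior count of 2 on the log2 scale. The biological coefficient of variation (BCV), a measure of spread between libraries that may be technical, came to 20.3% for α and 11.4% for β lines. In the fit of the α libraries split by replicate number it was 8.19%. On simulated data, 82 of 100 genes with a true log2 difference of 1 were called for αMut2 against αWT, 88 for WT-HS3Δ against βWT and 74 for αWT against βWT. Alternatives were RLE scaling, other count filters, no fold limit, a replicate block, fits of fewer lines or libraries and, chosen after seeing the data, numbers 2 to 4 of the β series, UBE2C left out of the mitosis mean and refits of the split by number. The members and lists were chosen with earlier results of these data known. In each comparison up to 4 of the largest rises and falls among called members are named, and PCNA, MCM2, MKI67, CCNB1, CDKN1A and CDKN1B in every line. From each other list up to 4 genes per series with the smallest adjusted p are named. Further genes were chosen after their values were seen, and 1 gene these rules name is not reported here.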

Additional observations from a re-analysis of the deposited data

Results flagged for a closer look

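In 25 of 242 sets of values (a gene or mean in 1 line) 1 library stood apart from the rest of its line by Dixon's criterion, which chance meets in about 1 of 20. The screen covered only a chosen part of the genes, with the means, and left out βMut-HS3Δ, which has too few libraries. βMut2 replicate 1 did so in CCNB1 (385 CPM, lowest, next 459.6), CENPE (107 CPM, highest, next 84.3), KIF11 (110.0 CPM, highest, next 86.8), MCM2 (236 CPM, highest, next 159), MCM7 (829 CPM, highest, next 605) and the replication mean (8.27, highest, next 7.99), and βMut2 replicate 4 in the mitosis mean (7.01, lowest, next 7.09). βWT replicate 1 did so in CENPF (213 CPM, highest, next 132), MKI67 (220.3 CPM, highest, next 108), PCNA (171 CPM, lowest, next 202) and TOP2A (954 CPM, highest, next 887), and βWT replicate 2 in CDC20 (169 CPM, lowest, next 174). αMut2 replicate 1 stood apart in CENPE (219 CPM, highest, next 202), MCM2 (251 CPM, lowest, next 294) and the replication mean (8.27, lowest, next 8.43), and αWT replicate 8 in CDT1 (184 CPM, lowest, next 198), MCM2 (229.8 CPM, lowest, next 285) and RRM2 (259 CPM, lowest, next 295). αRes2 replicate 3, the library of least depth, stood apart in CENPE (219 CPM, highest, next 159) and the difference of the means (0.60, lowest, next 0.88).

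Single values that stood apart were RRM2 (263 CPM, lowest, next 289) in αMut1 replicate 3, CDKN1B (45.3 CPM, lowest, next 52.7) in αRes1 replicate 1, CENPE (186 CPM, lowest, next 199) in αRes3 replicate 1, BUB1 (239 CPM, highest, next 223) in βMut1 replicate 2 and CDC20 (273 CPM, lowest, next 289.8) in WT-HS3Δ replicate 4.

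By the interaction test, the change from parent genotype to HS3-deleted line differed between the mutated and the intact genotype for CCNA2 (log2 difference 0.62), BUB1 (0.63) and CDT1 (-0.63). CDT1 lost its call in several fits that left out 1 library. Each edited line is 1 clone, so the edits and other differences between clones cannot be told apart.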

How the results depend on the processing

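Counts of members called stayed within 1.5 times under DESeq2 in 20 of 20 comparisons and under RLE scaling in 24 of 24. Without the fold limit they were 20 in αMut1, 11 in αMut2, 21 in αRes1, 22 in αRes2, 23 in αRes3 and 27 in αRes4 relative to αWT, and relative to αMut1 14 in αMut2, 4 in αRes1, 8 in αRes2, 12 in αRes3 and 22 in αRes4. Likewise they were 21 in βMut1, 18 in βMut2, 30 in WT-HS3Δ and 25 in βMut-HS3Δ relative to βWT, 19 in βMut2 relative to βMut1, 12 between the HS3-deleted lines, 6 in the interaction and 27 in αWT relative to βWT. Between the replicate sets, an alternative chosen after seeing the data, they were 15 in αMut1, 24 in αRes1, 13 in αRes2 and 19 in αWT.

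Among numbers 1 to 4, 6 members were called in αMut1 and 1 in αMut2 relative to αWT, and 1 in αMut2, 4 in αRes1 and 2 in αRes2 relative to αMut1. Numbers 5 to 8 gave 5 in αMut1 relative to αWT. UBE2C, uncertain throughout, was 0.59 in αMut1 and 0.65 in αRes2 among numbers 1 to 4, with the direction reversed from all libraries. Numbers 2 to 4 of the β series, chosen after seeing the data, gave 14 in βMut1 relative to βWT and 5 between the HS3-deleted lines. With no filter on low counts 4 were called in αMut2 relative to αMut1, with only the 2 lines fitted 4 between the HS3-deleted lines, and with a mean of at least 50 counts 1 between the αWT sets. The causes were not tested, beyond fewer libraries or genes in some fits.

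Leaving out 1 library gave 2 to 4 in αMut2 and 0 to 1 in αRes2 relative to αMut1, 6 to 17 in βMut1 and 2 to 8 in βMut2 relative to βWT, 2 to 5 between the HS3-deleted lines, 2 to 6 in the interaction, and 1 to 4 between the αRes2 sets and 1 to 2 between the αWT sets. The other counts stayed within 1.5 times.

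Leaving out 1 library cannot move a mean by more than the spread between libraries, so that limit tests nothing here. In these fits the difference between replication and mitosis means ran from 0.48 to 0.51 in WT-HS3Δ relative to βWT. In βMut2 relative to βWT the difference ran from -0.07 to 0.04, on both sides of 0. With medians over the genes it moved by more than the spread between libraries in αRes3 relative to αWT (-0.29, against -0.46 with means), βMut-HS3Δ relative to βMut1 (0.075, against 0.28), βMut-HS3Δ (0.30, against 0.43) and WT-HS3Δ (0.25, against 0.50) relative to βWT, and βMut-HS3Δ relative to WT-HS3Δ (0.052, against -0.06). The cause was not tested.

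The replicate numbers fell short of the condition set for pairing, that every same-numbered pair correlates over 0.1, although most β pairs met it. Same-numbered α libraries had a median correlation of deviations of 0.045 (lowest -0.444, 43 of 105 pairs over 0.1), against -0.005 for pairs with different numbers. Of 43 α libraries, 5 correlated best with their own number. In the β series the median was 0.238 (lowest -0.121, 26 of 36), against -0.078 for pairs with different numbers. Of 19 β libraries, 12 correlated best with their own number. The main tests did not use the numbers. With a replicate block 1 member was called in αMut2 relative to αMut1 and 0 in αMut2 relative to αWT, where CDKN1A (0.37, adjusted p = 0.12), CENPE (0.41) and KIF11 (0.39) were not called, and the other 18 counts stayed within 1.5 times. CDK1 in WT-HS3Δ relative to βWT was -0.49 with the block.

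UBE2C held the fewest counts of the members (4 to 56 per library), which limits its values.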
